A study of Mus musculus with 6 samples.

Results

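The genes described here are the interleukin-6 family and its STAT3 signalling chain, chosen by name from the deposited gene table: the cytokines Il6, Osm and Lif, the receptor chains Il6ra, Osmr, Lifr and Il6st, the transcription factor Stat3, and the feedback inhibitors Socs1 and Socs3. All 10 were found among the 39089 genes of the table. They were measured by RNA sequencing of the limbus of wild-type (WT) mice, the border zone of the cornea where the epithelial stem cells of the eye's surface lie. In 3 samples the mice had received injections under the conjunctiva on days 0 and 3 of L-733,060, which blocks NK1, the receptor of the neuropeptide substance P. In the 3 control samples they had received sterile water, on days that the labels do not give, and the limbus was taken after a week. Strain, sex, age and the number of mice per sample are not stated in the labels. The p-values here therefore set the group difference against the variation between these samples, which may be technical variation.

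Cytokines of this family signal through a shared receptor chain, gp130, which the gene Il6st encodes. Each cytokine reaches gp130 through a partner of its own: IL-6 through the IL-6 receptor alpha chain, LIF through the LIF receptor, and oncostatin M through the OSM receptor. Receptor engagement activates JAK kinases, which phosphorylate STAT3, and STAT3 in turn induces Socs3, whose protein binds gp130 and JAKs and shuts the signal down. In the cornea the pathway is best known from wound repair and inflammation. STAT3 is activated by phosphorylation, which RNA levels do not show.

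Total counts were 18708288 to 21230942 in the L-733,060 samples and 21870713 to 23541791 in the controls. Levels are given as normalised CPM (counts scaled to library size), which compare one gene between samples, and as the authors' TPM (the same also divided by gene length), which allow genes to be compared. A sample with 3 counts of a gene had 0.128 to 0.161 CPM, and values under that are close to absence. Markers of the labelled tissue were present: all 8 genes listed for corneal and limbal epithelium were tested, and they summed to 33472 to 40959.5 CPM in L-733,060 samples and to 52034 to 59899 CPM in controls.

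Of the family, Socs3 rose 16.9-fold and Lifr fell 1.55-fold in the limbus given L-733,060. Stat3 itself, the shared chain Il6st, and the receptor chains Osmr and Il6ra did not pass the test. Il6 and Osm were almost absent from controls and present at trace levels with L-733,060. In numbers, 8 of the 10 members had enough counts to be tested, 1 was called higher and 1 lower, and 6 did not pass an adjusted p of 0.05 in edgeR's quasi-likelihood test. Across all 15712 tested genes 41.3% were called, 21.4% higher and 19.9% lower, beside 25.0% of the 8 tested members. The median log2 fold change of the 8 tested members was 0.24, against -0.0016 over all tested genes.

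**Figure D1:**
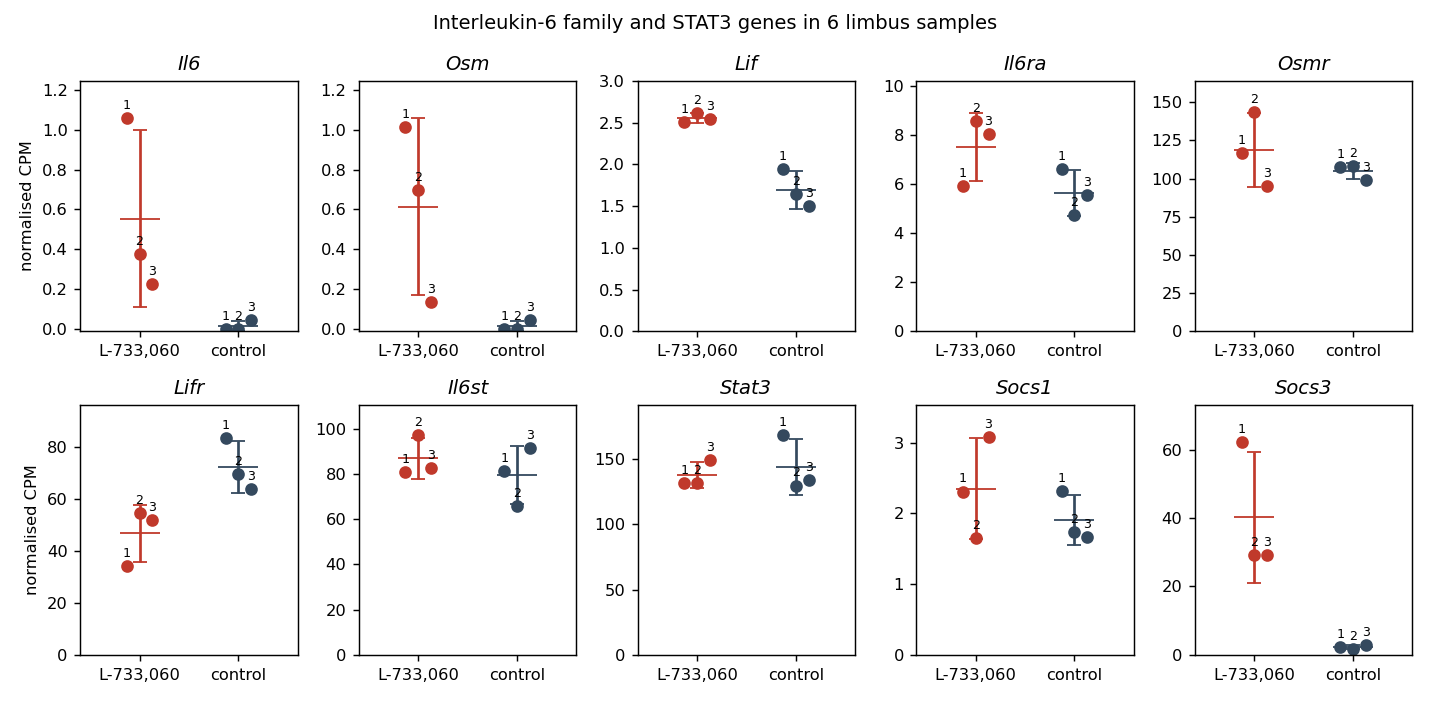
Normalised CPM (y axis, from 0 or just below it, a separate scale for each gene) of the 10 members in each L-733,060 sample (red, left) and each control sample (dark, right), with sample numbers beside the points and the mean and SD as a line and a bar. The 3 L-733,060 samples lie above all controls for Socs3 (29.1 to 62.3 against 1.69 to 2.99 CPM) and below all controls for Lifr (34.3 to 54.5 against 64.0 to 83.5 CPM), while the groups overlap for Stat3.

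The promoters of Socs3, the member with the largest tested rise, and of the cytokine genes Il6 and Lif are shown because they were the 3 that held a match to a motif of STAT factors, AP-1 or NF-kB, which are known to act on such genes. Each is the 250 bases before a RefSeq transcript start (GRCm38.p6), written 5′ to 3′ on the gene's own strand, with the matches in capitals. The coordinates are chr11:117969367-117969616 on the minus strand for Socs3, chr5:30012864-30013113 on the plus strand for Il6, and chr11:4257318-4257567 on the plus strand for Lif.
Socs3: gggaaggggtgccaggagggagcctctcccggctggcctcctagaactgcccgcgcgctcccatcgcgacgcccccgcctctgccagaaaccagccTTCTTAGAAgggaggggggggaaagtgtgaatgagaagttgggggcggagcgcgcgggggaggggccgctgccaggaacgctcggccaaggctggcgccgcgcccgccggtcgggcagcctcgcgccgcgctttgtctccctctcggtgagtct
Il6: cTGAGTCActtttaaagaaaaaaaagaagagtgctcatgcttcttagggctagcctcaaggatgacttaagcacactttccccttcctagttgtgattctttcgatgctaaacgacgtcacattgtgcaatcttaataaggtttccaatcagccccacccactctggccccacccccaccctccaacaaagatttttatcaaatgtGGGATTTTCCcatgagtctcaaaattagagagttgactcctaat
Lif: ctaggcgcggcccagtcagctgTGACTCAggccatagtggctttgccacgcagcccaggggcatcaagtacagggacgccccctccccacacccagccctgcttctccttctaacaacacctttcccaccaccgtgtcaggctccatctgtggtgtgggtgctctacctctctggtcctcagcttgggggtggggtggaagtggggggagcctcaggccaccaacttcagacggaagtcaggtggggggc
In Socs3 the capitals mark TTCTTAGAA, a match to the STAT motif TTCNNNGAA, 154 to 146 bases before the start. In Il6 they mark TGAGTCA, a match to the AP-1 motif TGANTCA at 249 to 243 bases before the start, and GGGATTTTCC, a match to the NF-kB motif (GGG and TTTCC with a pair of free bases between) at 44 to 35 bases. In Lif they mark the AP-1 match TGACTCA, 228 to 222 bases before the start. Of 32851 promoter windows of this length in the RefSeq table, searched on both strands, 7.02% held the STAT motif, 6.75% the AP-1 motif and 1.41% the NF-kB motif. Windows were at hand for 9 of the 10 members, and 3 of those 9 held a match. A match is a sequence of letters, and binding was not measured. The RefSeq start of Socs3 lies 970 bases inside the gene span of the deposited table.

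Il6, the cytokine that names the family (chromosome 5, 30013114 to 30019975, plus strand, mm10), had 22, 7 and 5 counts in L-733,060 samples 1 to 3, against 0, 0 and 1 in controls 1 to 3. All 3 L-733,060 samples were above every control, and L-733,060 sample 1 held most of the reads. The pooled ratio of 36.4, scaled to library size, has a 95% exact counting interval of 6.11 to 1481, and such an interval covers counting error only. The ratio was 19.4 without L-733,060 sample 1, and without control 3, which held the single control count, Il6 was at least 7.86-fold higher, with the controls set to 3 counts in all. The gene A230098N10Rik spans Il6 on the opposite strand and had 1 count in all 6 samples together, and the counting is not stated to use strand.

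Osm, which encodes oncostatin M, a cytokine made mainly by neutrophils, macrophages and T cells (chromosome 11, 4236785 to 4241026, plus strand), had 21, 13 and 3 counts in L-733,060 samples 1 to 3, against 0, 0 and 1 in controls 1 to 3. Again each L-733,060 sample exceeded each control, but sample 3 stood close to the floor. The pooled ratio was 39.7 (95% exact counting interval 6.69 to 1608), 25.8 without L-733,060 sample 1, and at least 8.56-fold without control 3. Both cytokines fell under the filter on low counts. When all genes with any count were tested, edgeR's quasi-likelihood test called Il6 (adjusted p = 3.92e-05) and Osm (adjusted p = 1.17e-05) higher, and so did DESeq2 (adjusted p = 0.00297 and 0.00202). With 1 control sample or L-733,060 sample 3 left out, Osm passed the filter through its L-733,060 counts alone. It was then called higher (edgeR adjusted p at most 0.0234), but the direction was set by how it passed.

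Several leukocyte marker lists moved with these cytokines, most upwards and the mast cell list downwards. Of 10 neutrophil markers, 4 were tested and all 4 rose. Among them, Csf3r and Cxcr2 passed the filter through their L-733,060 counts alone, so their direction was set by how they passed. The list summed to 288, 201 and 52.2 CPM in L-733,060 samples 1 to 3. In controls 1 to 3 it summed to 4.35, 3.48 and 7.44 CPM. The neutrophil sums, like the counts of Il6 and Osm, were highest in L-733,060 sample 1 and lowest in sample 3. S100a9 and Cxcr2 had this order too. S100a8 (53.4, 55.3 and 14.3 CPM in samples 1 to 3) and Csf3r (22.1, 23.2 and 9.38 CPM) were instead highest in sample 2. The macrophage and T lymphocyte sums were highest in sample 2 as well. These orders over 3 samples were not tested. Of the neutrophil markers under the filter, Elane was at 0 in all samples, and Mpo in all but L-733,060 sample 1 (0.144 CPM). Retnlg was at 0.179 to 4.67 CPM with L-733,060 and at most 0.0428 CPM in controls. The groups overlapped for Ly6g (0 to 0.193 CPM with L-733,060, 0.0463 to 0.128 CPM in controls). They also overlapped for Ngp (0 to 0.289 against 0 to 0.0463 CPM) and for Camp (0 to 0.0535 against 0 to 0.0925 CPM). Of 10 macrophage markers 9 rose, with sums of 803 to 971 CPM in L-733,060 samples and 576 to 697 CPM in controls, and no marker was at 0. Most of these sums was Itgam, at 514 to 629 CPM with L-733,060 and 510 to 614 CPM in controls, the marker that did not pass. Of 8 T lymphocyte markers 6 were tested and 5 rose, to sums of 11.7 to 13.2 CPM with L-733,060 against 5.39 to 6.75 CPM in controls. All 5 passed the filter through their L-733,060 counts alone. Of 7 mast cell markers 2 were tested and both fell, with sums of 54.8 to 102 CPM in L-733,060 samples and 143 to 199 CPM in controls. Nearly all of these sums was Kit, at 54.6 to 102 CPM with L-733,060 and 141 to 196 CPM in controls. Cpa3, the other tested marker, was at most 0.107 CPM with L-733,060 and 0.855 to 1.76 CPM in controls, and passed the filter through its control counts alone. Fcer1a was at 0 in all samples and Ms4a2 in all L-733,060 samples. The part of these cells in the levels of Il6 and Osm was not tested.

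Lif, a cytokine that uses gp130 and the LIF receptor and lies 16.5 kb downstream of Osm (chromosome 11, 4257568 to 4272514, plus strand), measured 2.50, 2.62 and 2.55 CPM in L-733,060 samples 1 to 3, against 1.94, 1.64 and 1.497 CPM in controls 1 to 3. The groups did not overlap, which held for 52% of all tested genes. Its log2 fold change was 0.59 with an SE of 0.25 (edgeR adjusted p = 0.0739), short of the threshold, and under the other settings its adjusted p ran from 0.0695 to 0.200.

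Of the 4 receptor chains, Lifr was called. Lifr, the receptor chain for LIF (chromosome 15, 7090610 to 7197489, plus strand), measured 34.3, 54.5 and 51.8 CPM in L-733,060 samples 1 to 3, against 83.5, 69.7 and 64.0 CPM in controls 1 to 3. Every L-733,060 sample lay below every control, sample 1 farthest. The gene fell by 0.63 on the log2 scale (SE 0.17; edgeR adjusted p = 0.0130). Without control 1 the call was lost (log2 fold change -0.52, edgeR adjusted p = 0.0663), and without L-733,060 sample 1 it was barely kept (-0.44, adjusted p = 0.0498). In bulk tissue, fewer cells of a type that expresses a gene and less RNA per cell cannot be told apart. Beside this fall, markers of corneal stroma (fibroblasts and keratocytes) went both ways: 5 of 8 rose and 3 fell, with sums of 2053 to 2760 CPM in L-733,060 samples and 2356 to 3395 CPM in controls. Of the 8 epithelial markers 2 rose and 4 fell. Krt12, the keratin of differentiated cornea, was at 1427 to 2065 CPM with L-733,060 against 16588 to 23252 CPM in controls. Krt14, a keratin of basal epithelium, went the other way, at 13208 to 18214 CPM with L-733,060 against 1338 to 2125 CPM in controls, and Epcam, an epithelial adhesion molecule, rose by log2 1.18 (SE 0.12). The others that fell were Krt5, Krt15 and Pax6. The part of cell composition in the fall of Lifr was not tested.

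Osmr, the receptor chain that binds oncostatin M and lies 216 kb from Lifr on the same chromosome (chromosome 15, 6813568 to 6874968, minus strand), measured 116, 144 and 95.4 CPM in L-733,060 samples 1 to 3, against 107, 108 and 99.0 CPM in controls 1 to 3. The L-733,060 samples reached both above and below the controls. The log2 fold change was 0.18 (SE 0.15; edgeR adjusted p = 0.364), and 2 standard errors either side span -0.12 to 0.47. Per unit length, Osmr exceeded Lifr in all samples, by 6.17, 4.79 and 3.35 times in TPM in L-733,060 samples 1 to 3, against 2.33, 2.83 and 2.81 times in controls 1 to 3. The ratio was therefore higher in each L-733,060 sample than in any control. Its log2 value differed by 0.81, at 2.21 ± 0.44 with L-733,060 and 1.40 ± 0.16 in controls (SD, n = 3 each), with an exact permutation p of 0.1 (two-sided), the smallest that 3 samples against 3 allow.

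Il6ra, the chain that binds IL-6 (chromosome 3, 89869324 to 89913196, minus strand), measured 5.92, 8.56 and 8.04 CPM in L-733,060 samples 1 to 3, against 6.61, 4.74 and 5.56 CPM in controls 1 to 3. The groups overlapped, with a log2 fold change of 0.41 (SE 0.21; edgeR adjusted p = 0.136). Gm46811, inside the gene on the opposite strand, had at most 13 counts in a sample. Il6st, the common gp130 chain (chromosome 13, 112464070 to 112506860, plus strand), measured 80.8, 97.1 and 82.5 CPM with L-733,060, against 81.1, 65.8 and 91.5 CPM in controls. Its values overlapped throughout (log2 fold change 0.13, SE 0.14; edgeR adjusted p = 0.503), and 2 standard errors either side span -0.16 to 0.41. Without control 2 the value was -0.013.

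**Figure D2:**
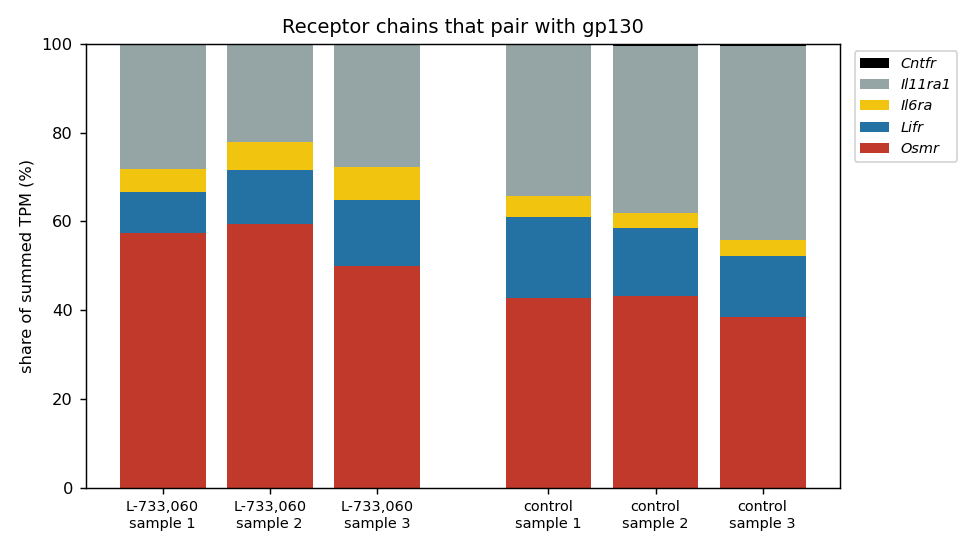
Share of each receptor chain (y axis, %) in the summed TPM of 5 chains that pair with gp130, in the 3 L-733,060 samples (left) and the 3 controls (right). Osmr takes 49.99 to 59.3% with L-733,060 and 38.4 to 43.3% in controls, and Il11ra1 22.1 to 28.2% against 34.1 to 43.7%.

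Set side by side per unit length, Osmr made up 55.6 ± 4.92% of the summed TPM of Osmr, Lifr, Il6ra, Il11ra1 and Cntfr in L-733,060 samples, and 41.5 ± 2.66% in controls (SD, n = 3 each). Lifr took 12.2 ± 2.82% with L-733,060 and 15.8 ± 2.35% in controls, and here the groups overlapped. Il6ra took 6.20 ± 1.13% with L-733,060 and 3.89 ± 0.65% in controls. Il11ra1, the receptor chain of interleukin-11, took 25.9 ± 3.35% with L-733,060 and 38.5 ± 4.87% in controls. The shares of a sample add up to a whole, so they do not move independently.

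Stat3, the transcription factor that the receptors activate (chromosome 11, 100886806 to 100939594, minus strand), was the most abundant member per unit length in both groups, at 63.5 ± 8.09 TPM with L-733,060 and 65.8 ± 12.4 TPM in controls (SD, n = 3 each). Scaled between samples, it measured 132, 132 and 149 CPM in L-733,060 samples 1 to 3, against 169, 130 and 134 CPM in controls 1 to 3. The samples of both groups intermixed. The log2 fold change of -0.07 (SE 0.13; edgeR adjusted p = 0.723) has a span of 2 standard errors either side of -0.33 to 0.20, and without control 1 it was 0.06. Gm46295, which overlaps the start of Stat3 on the other strand, had 3 to 18 counts per sample.

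Socs3, which encodes the inhibitor that closes the loop on gp130 (chromosome 11, 117966079 to 117970336, minus strand), had 1293, 546 and 651 counts in L-733,060 samples 1 to 3, against 52, 36 and 70 in controls 1 to 3. After scaling these were 62.3, 29.2 and 29.1 CPM with L-733,060, against 2.41, 1.69 and 2.99 CPM in controls. The lowest L-733,060 sample stood far above the highest control, and sample 1 stood above the other two. The log2 fold change was 4.08 (SE 0.33; edgeR adjusted p = 2.47e-06), and 172 of the 15712 tested genes had a larger one. It stayed between 3.62 and 4.28 under the other settings, each past the threshold, with samples left out one at a time among them. The STAT motif match shown in its promoter above is of a kind that 7.02% of windows hold.

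Set against Stat3, Socs3 stood at 0.600, 0.281 and 0.247 of the Stat3 level in TPM in L-733,060 samples 1 to 3, against 0.0181, 0.0166 and 0.0284 in controls 1 to 3. The log2 of this ratio was -1.53 ± 0.69 with L-733,060 and -5.61 ± 0.42 in controls (SD, n = 3 each), a difference of 4.09, with no overlap and an exact two-sided permutation p of 0.1, the smallest possible. In the order of levels per unit length, Socs3 ranked 4 among the members with L-733,060, at 23.2 ± 9.97 TPM, and its samples overlapped those of Il6st above it (33.5 ± 3.66 TPM). In controls it ranked 7, at 1.37 ± 0.42 TPM, below Socs1 (2.97 ± 0.66 TPM) with no overlap. Elsewhere the order was the same in both groups down to Socs1: Stat3, Osmr, Il6st, Lifr, Il6ra, Socs1. Il6ra and Socs1 overlapped in both groups, and Osmr and Il6st overlapped with L-733,060 but not in controls. At the low end, Il6, Lif and Osm overlapped with L-733,060 (0.994 ± 0.763, 0.9499 ± 0.058 and 0.609 ± 0.426 TPM), and in controls Lif (0.624 ± 0.102 TPM) stood above the other two.

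Socs1, the related inhibitor that blocks JAK kinases directly (chromosome 16, 10783808 to 10785536, minus strand), measured 2.31, 1.66 and 3.08 CPM in L-733,060 samples 1 to 3, against 2.31, 1.74 and 1.67 CPM in controls 1 to 3. The groups overlapped, with a log2 fold change of 0.31 (SE 0.29; edgeR adjusted p = 0.427). With 31 to 69 counts per sample its span of 2 standard errors either side is wide, -0.28 to 0.90, beside 3.42 to 4.74 for Socs3.

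**Figure D3:**
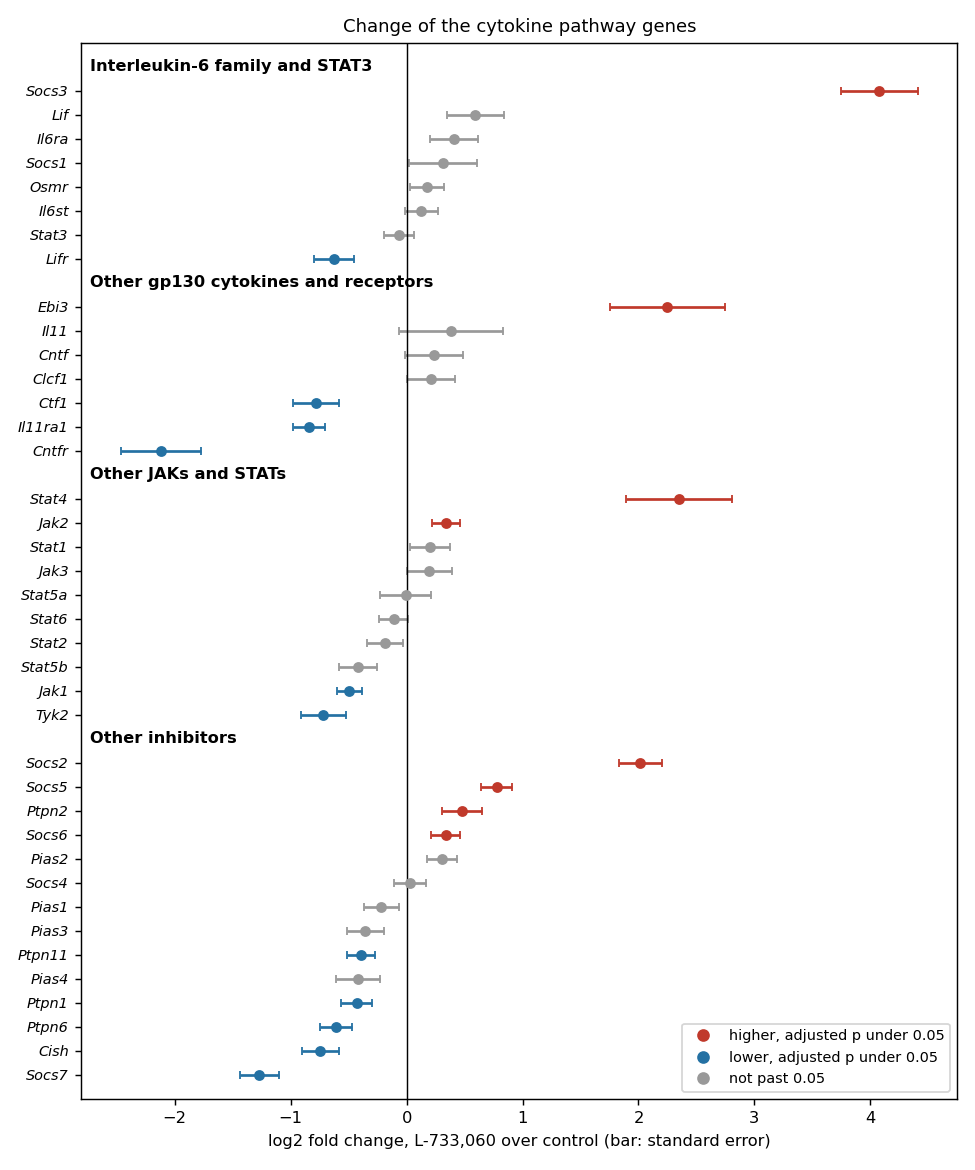
Log2 fold change of L-733,060 over control (x axis) with its standard error for the tested members and for other genes of the pathway that are reported here, sorted within each list. Red and blue points passed an edgeR adjusted p of 0.05 as higher and lower, and grey points did not; Socs3 lies farthest to the right, at 4.08, and Cntfr farthest to the left, at -2.12.

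Of 13 other cytokine and receptor genes of the gp130 family, 8 were tested, 1 rose and 4 fell (62.5% called, against 41.3% of all tested genes), with a median log2 fold change of -0.28. Among those that fell were Cntfr, the receptor chain of ciliary neurotrophic factor (0.571 ± 0.193 CPM with L-733,060 and 2.53 ± 0.508 CPM in controls), Il11ra1 (18.1 ± 0.796 CPM with L-733,060 and 32.4 ± 4.57 CPM in controls) and Ctf1, cardiotrophin-1 (3.81 ± 0.1502 CPM with L-733,060 and 6.54 ± 1.119 CPM in controls). These 3 fell by 2.12, 0.84 and 0.78 on the log2 scale (edgeR adjusted p at most 0.00841). Reads of Il11ra1 could also come from a near-identical copy, Il11ra2, which was listed at 0 counts in all samples. Ebi3, a subunit of interleukin-27 and interleukin-35, rose by log2 2.25 (SE 0.50; edgeR adjusted p = 0.00342), at 1.39 ± 0.492 CPM with L-733,060 and 0.286 ± 0.172 CPM in controls. Ebi3 passed the filter through its L-733,060 counts alone, and Cntfr through its control counts alone. Il27ra, which pairs with gp130 for interleukin-27, was under the filter, with 33 counts over the L-733,060 samples and 7 over the controls, a ratio of 5.05 (95% exact counting interval 2.20 to 13.5). With single samples left out the ratio ran from 3.46 (without L-733,060 sample 1) to 7.95 (without control 1). With control 1 or L-733,060 sample 3 left out, Il27ra passed the filter through its L-733,060 counts alone and was called higher. The list then counted 2 genes higher, but the direction of Il27ra was set by how it passed.

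Of the 10 other JAK and STAT genes, all tested, 2 rose, 2 fell and 6 did not pass, with a median log2 fold change of -0.06. The 4 called of 10 are near the 41.3% called over all tested genes. Jak1, the kinase on which gp130 signalling mainly depends, measured 177 ± 9.10 CPM with L-733,060 and 249.3 ± 9.43 CPM in controls (log2 fold change -0.49, SE 0.11; edgeR adjusted p = 0.00364). Tyk2, another kinase of these receptors, fell by 0.72 (SE 0.19; edgeR adjusted p = 0.0110), but its adjusted p was 0.0636 without control 1 and 0.0521 without L-733,060 sample 1, and then 1 gene of the list fell. Stat4, a factor of lymphocytes and myeloid cells, rose by 2.35 (SE 0.46; edgeR adjusted p = 0.00158), at 0.792 ± 0.065 CPM with L-733,060 and 0.151 ± 0.030 CPM in controls. Stat4 passed the filter through its L-733,060 counts alone. Jak2 rose by 0.34 (SE 0.12; edgeR adjusted p = 0.0401). Its call was lost without control 1, 2 or 3 or L-733,060 sample 2 (adjusted p 0.0929 to 0.146), which left 1 gene higher.

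Of 14 other inhibitors of the pathway, 4 rose and 5 fell (64.3% called, against 41.3% of all tested genes), with a median log2 fold change of -0.29. Socs2, best known as a brake on growth hormone signalling, rose by log2 2.02 (SE 0.19; edgeR adjusted p = 7.10e-06), at 17.6 ± 2.80 CPM with L-733,060 and 4.34 ± 0.549 CPM in controls. Socs5 rose by 0.78 (SE 0.13; edgeR adjusted p = 6.57e-04). Socs6 (0.34) and the phosphatase gene Ptpn2 (0.48) passed narrowly (edgeR adjusted p = 0.0459 and 0.0465), and both were lost without control 1, 2 or 3 or L-733,060 sample 1 or 2, which left 2 genes higher. On the other side, Socs7 fell by 1.27 (SE 0.17), Cish, an inhibitor of STAT5 signalling, by 0.74 (SE 0.16), and the phosphatases Ptpn6 and Ptpn11 by 0.61 and 0.39 (edgeR adjusted p at most 0.0217). Ptpn11 was lost without control 1 (adjusted p = 0.0905), L-733,060 sample 1 (0.0797) or L-733,060 sample 2 (0.0583), and without L-733,060 sample 1 or 2 the list had 3 genes lower.

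Genes reported as STAT3 targets in other systems mostly moved, in both directions. Of 20, all tested, 11 rose, 4 fell and 5 did not pass (75.0% called, against 41.3% of all tested genes), with a median log2 fold change of 1.009 beside -0.0016 over all genes. Timp1, an inhibitor of matrix metalloproteinases, rose by 4.37 (SE 0.26), at 43.5 ± 12.2 CPM with L-733,060 and 2.097 ± 0.540 CPM in controls. The transcription factor gene Nfil3 rose by 3.12 (SE 0.25), Il4ra, a receptor chain for interleukins 4 and 13, by 2.47 (SE 0.19), and the adhesion molecule Icam1 by 2.09 (SE 0.19), all with edgeR adjusted p at most 6.46e-06. The immediate early genes Fos and Junb fell by 1.57 (SE 0.15) and 0.76 (SE 0.19), the cyclin gene Ccnd1 by 0.97 (SE 0.15), and Pim1, a kinase gene that STAT factors induce in blood cells, by 0.50 (SE 0.11; edgeR adjusted p at most 0.00676 for the 4). The survival gene Mcl1 was at 352 ± 24.2 CPM with L-733,060 and 331 ± 14.3 CPM in controls (edgeR adjusted p = 0.562). Cell type markers moved beside this list as well, among them the neutrophil, macrophage and T lymphocyte markers given above. Of 5 tested smooth muscle markers 3 rose and 1 fell, with sums of 140 to 209 CPM with L-733,060 and 26.1 to 29.4 CPM in controls. Most of the L-733,060 sums was Acta2, at 111 to 171 CPM against 10.1 to 13.4 CPM in controls. Actg2, which rose, passed the filter through its L-733,060 counts alone. The marker that fell was Myh11 (log2 fold change -0.96, SE 0.29). The stromal list went both ways, with 5 of 8 markers higher and 3 lower. Col3a1, a fibrillar collagen, rose the most, by log2 2.95 (SE 0.21). Kera, Dcn and Lum fell, with log2 fold changes of -2.78 (SE 0.21), -2.02 (SE 0.19) and -1.25 (SE 0.23). The part of these cells, and of STAT3 itself, in the change of the targets was not tested.

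**Figure D4:**
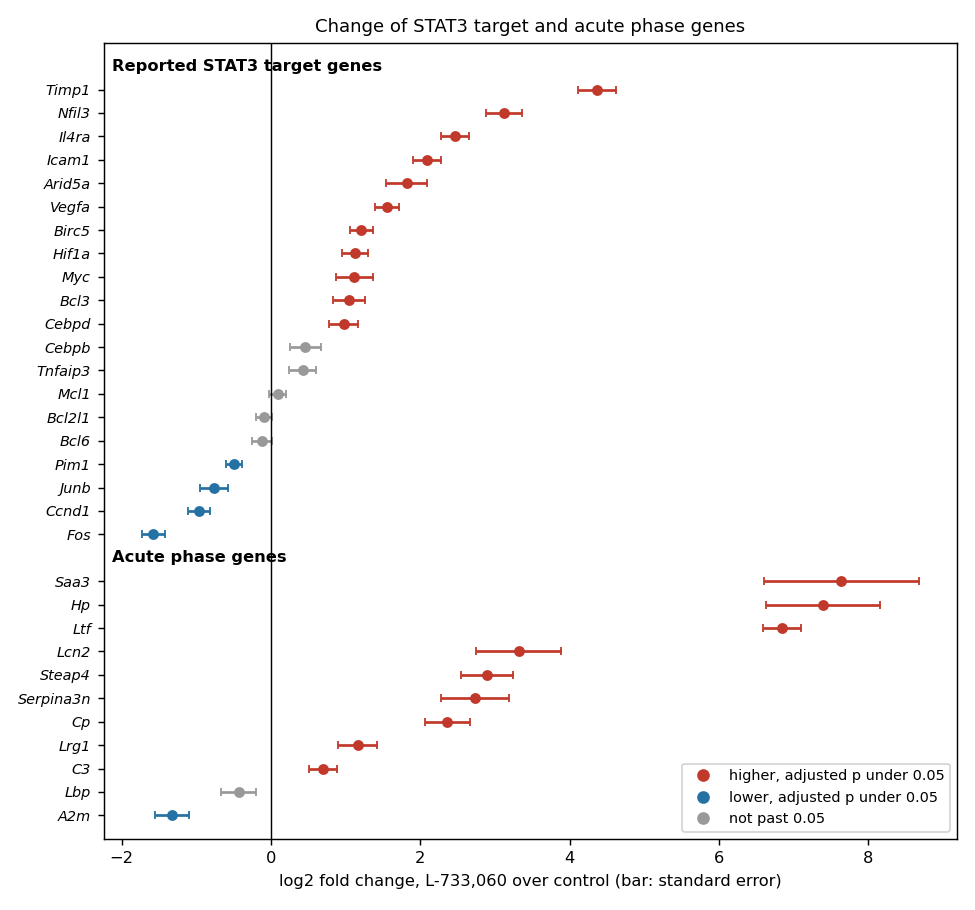
Log2 fold change of L-733,060 over control (x axis) with its standard error for 20 reported STAT3 target genes and 11 tested acute phase genes, in red where called higher, blue where called lower and grey where not called. Among the targets, 11 are higher and 4 lower; the fitted value of Hp rests on 2 control counts.

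Acute phase genes, which interleukin-6 type cytokines induce in the liver, rose in 9 of 11 tested cases, fell in 1 and did not pass in 1. That is 90.9% called, against 41.3% of all tested genes, with a median log2 fold change of 2.73. Among the 9, Hp and Saa3 passed the filter through their L-733,060 counts alone, so their direction was set by how they passed. Ltf, the iron-binding lactoferrin of secretions and neutrophil granules, reached 4760 ± 1279 CPM with L-733,060, against 41.4 ± 6.22 CPM in controls (log2 fold change 6.85, SE 0.25; edgeR adjusted p = 1.65e-08). Steap4, a metalloreductase, and Cp, the copper protein ceruloplasmin, rose by 2.89 (SE 0.35) and 2.36 (SE 0.30; edgeR adjusted p at most 8.06e-05). Hp, haptoglobin, had 365 counts over the L-733,060 samples and 2 over the controls, a ratio of 196 (95% exact counting interval 53.8 to 1621), and was at least 84.4-fold higher without control 3, which held both counts. A2m, a protease inhibitor, fell by 1.33 (SE 0.23; edgeR adjusted p = 6.81e-04).

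Under the filter, Orm1 was at 48 counts over the L-733,060 samples and 0 over the controls, at least 17.2-fold higher with the controls set to 3 counts in all. That bound was 11.1-fold without control 3. Saa1 and Saa2, whose near-identical sequences make the split of reads uncertain, had 41 and 78 counts over the L-733,060 samples, against 11 and 1 over the controls. Most of these reads came from L-733,060 sample 1, with 35 of Saa1 and 64 of Saa2. Without it the ratio of Saa1 was 0.880 (95% exact counting interval 0.267 to 2.60), against 3.995 (2.02 to 8.62) with it, and that of Saa2 was 22.6, against 83.6 with it. The ratio of Saa2 was 54.1 without control 3 and at least 18.9-fold without control 2, which held the control count. The neutrophil marker sums, mostly S100a9 and S100a8, moved with these genes too. They were 52.2 to 288 CPM with L-733,060 and 3.48 to 7.44 CPM in controls, and their part in the change was not tested.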

How the data were processed

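Poly(A)-selected RNA of mouse corneal limbus was sequenced in 3 L-733,060 and 3 control samples. Per the submitters' processing notes, bcl2fastq, HISAT2 2.1.0 and HTSeq 0.11.2 were used with mm10; other settings, strand mode included, are not given. The authors deposited a whole-number read count per gene and sample, TPM per gene and sample (count over deposited gene length, an other measure, rescaled; largest difference 4.96e-06), and every per-sample column was used. Samples of a group differed beyond counting error (chi-square per degree of freedom 15.0 to 38.7), so none was a duplicate. No molecular identifiers are described.

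Counts were tested in R 4.3.3 with edgeR 4.0.16: filterByExpr (minimum count 10, minimum total 15; 15712 genes kept), TMM scaling, and a two-sided quasi-likelihood F test, with Benjamini-Hochberg adjusted p (all 15712 genes) called under 0.05. The common biological coefficient of variation was 0.157. The standard error is the absolute log2 fold change over the square root of F. The method was tested on simulated data. Ratios of TPM were compared by exact permutation over samples, and low genes by pooled counts with exact 95% intervals. Alternatives were DESeq2 1.42.0 (size factors, and its Wald test), no filter, a filter of 1 CPM in 3 samples, a replicate block and leaving out each sample.

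The members and lists were chosen with earlier results of these data known. The text names all members and, of each other list, up to 4 genes of smallest p per direction, the gene of highest mean CPM, and untested genes with 10 or more counts in a sample. A gene of the other lists that this rule names is counted in its list but not reported here. Itgam, Elane, Mpo, Fcer1a, Ms4a2, Krt12, Krt14, Krt5, Krt15, Pax6, Epcam and Col3a1 were singled out among the cell type markers after their values were seen. So were S100a8, S100a9, Cxcr2, Csf3r, Ly6g, Camp, Ngp, Retnlg, Kit, Cpa3, Acta2, Actg2, Myh11, Dcn, Lum and Kera, and Saa3 among the acute phase genes. Likeness of pattern between genes was not computed, since the 6 samples separate mainly by group.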

Additional observations from a re-analysis of the deposited data

How the results depend on the processing

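Of the 39 tested genes that the naming rule picks, 31 kept their direction and their side of the threshold under every alternative run, and 8 did not, in each case without a tested cause: Il6st and Stat3, which were not called, changed sign (Il6st to -0.013 without control 2, with a range of -0.013 to 0.24 over left-out samples, and Stat3 to 0.058 without control 1, with a range of -0.16 to 0.058), and Lifr, Jak2, Tyk2, Socs6, Ptpn2 and Ptpn11 lost a call under settings given with their values above or, for Jak2 and Socs6, without a filter (adjusted p = 0.0751 and 0.0889). Socs6 was also lost with DESeq2 size factors (0.05002) and the DESeq2 Wald test (0.0591). The ratio of Saa1 turned to 0.880 without L-733,060 sample 1, with a range of 0.880 to 5.92 over left-out samples. Without a filter and with the DESeq2 Wald test, 3 members rose in place of 1, because Il6 and Osm were then tested, and 2 other gp130 genes rose in place of 1. With the stricter filter, 0 other gp130 genes rose, since Ebi3 was no longer tested, and 1 other JAK or STAT gene rose in place of 2, since Stat4 was not; without a filter it was also 1. With samples left out one at a time, 1 to 2 members rose and 0 to 1 fell, 1 to 2 other gp130 genes rose, 1 to 2 other JAK or STAT genes rose and 1 to 3 fell, and 2 to 4 inhibitors rose and 3 to 7 fell. The added risers, Osm among the members and Il27ra among the gp130 genes, passed the filter there through their L-733,060 counts alone. Whether the replicate numbers of the titles pair the samples is not stated. Deviations of same-numbered samples correlated at -0.022, 0.273 and 0.133 over 15712 genes, and those of differently numbered samples at -0.296 to 0.163. These ranges overlap, so they do not decide it. A fit with a replicate block called 3609 genes higher and 3462 lower, beside 3367 and 3129, and changed no call of a named gene. Depth limits Il6, Osm and the other genes under the filter, where single samples decide the ratios.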
